A study of Mus musculus with 24 samples.

Results

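The comparison described here is that of islets from young mice 2 days after PPTx (partial pancreatectomy, an operation that takes out a portion of the gland) with islets from young mice that had no operation. Its members were taken by sample title: 4 young day 2 libraries and 4 young control libraries, 8 of the 24 bulk RNA-seq libraries of the series. All mice were male C57BL/6J, the young ones 8 weeks and the old ones 52 weeks of age, and the study asked how islets respond while beta cells replicate after PPTx and whether age changes the response. Old control and old day 2 islets (4 libraries each) are used below only to show where the young response differs, and young islets at days 7 and 14 (2 libraries each) only to follow the genes named here. Several features of the design limit the comparison. The controls were not sham-operated, so operation, anaesthesia and loss of tissue cannot be told apart. Per the study's methods the splenic side was cut away, so in operated mice islets came from the remnant, and the region of the pancreas cannot be told apart from the operation. Each library held islets of 1 or 2 mice, and each 6-digit code in the labels belonged to 1 group only, so code and group cannot be told apart either. The p-values measure the spread between these libraries.

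Islets are clusters of endocrine cells in which insulin-secreting beta cells predominate. Proinsulin is made at the endoplasmic reticulum (ER), where it passes through the translocon, loses its signal peptide and folds; COPII coats then carry cargo from the ER to the Golgi, and COPI coats bring material back. Beta cells sense glucose through mitochondrial oxidation, so mitochondrial enzymes bear on secretion directly. In the fasted state, or when insulin signalling is low, FoxO transcription factors switch on genes for fatty acid use, autophagy and growth arrest; glucocorticoids, released under stress, act through their own receptor on an overlapping set of genes.

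Total counts ran from 3924105 to 9385697 in the 8 young libraries, so that a single count stood for 0.255 to 0.107 CPM (counts scaled to a common library size), and 25.3% to 55.3% of mapped reads lay in genes. Day 2 replicate 1 was lowest in both. RNA of acinar cells, the enzyme-secreting cells around the islets, held 14.5%, 16.1%, 11% and 29.6% of counts in controls 1 to 4 and 1.91%, 1.48%, 3.69% and 0.400% at day 2 (17.8% ± 8.13 and 1.87% ± 1.37, SD, n = 4 each; two-sided exact permutation test, p = 0.0286, the smallest that 4 against 4 can give). The groups did not overlap, so a gene can differ here by following the acinar share. Beside the main results below stand the values of a fit that holds an acinar score constant (the mean log2 CPM of 43 acinar genes, as a covariate over all 24 libraries, chosen after the data had been seen), and Pearson's r of a gene with that score over the 16 libraries outside this comparison, after removing group means, as a description. Markers of islet beta cells were present in each library: insulin genes held 8.44% to 9.46% of counts in controls and 8.49% to 10.3% at day 2, and the summed level of 36 beta cell genes was 126000 to 170400 CPM in controls and 96900 to 142300 CPM at day 2.

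Of 13388 rows tested, 936 (6.99%) differed between young day 2 and control (edgeR's quasi-likelihood test, adjusted p below 0.05), 508 higher (3.79%) and 428 lower (3.2%). Every day 2 library was above every control in 797 rows (5.95%) and below every control in 874 (6.53%). In old islets 3 of 14077 rows (0.0213%) were called, and 78 (0.554%) with the replicate number as a block, since old libraries of the same number deviated together. Most changes were moderate. Of the rises, 199 were under 0.5 on the log2 scale, 220 from 0.5 to 1, 46 from 1 to 1.5 and 43 above; of the falls, 125 were under 0.5, 193 from 0.5 to 1, 46 from 1 to 1.5 and 64 above. Lists of cell cycle and ER genes held 74 of the 508 rises, and the acinar list 36 of the 428 falls, so most calls in either direction lay outside them. Scaled to library totals, with no TMM factors, 2521 of 2633 calls (95.75%) were rises, against 54.27% here, with the median of all rows at 0.32; with the acinar score as a covariate 249 of 612 calls (40.69%) were rises. Without control replicate 1, control replicate 2, day 2 replicate 2 or day 2 replicate 3 the count was 462, 407, 419 and 376.

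**Figure D1:**
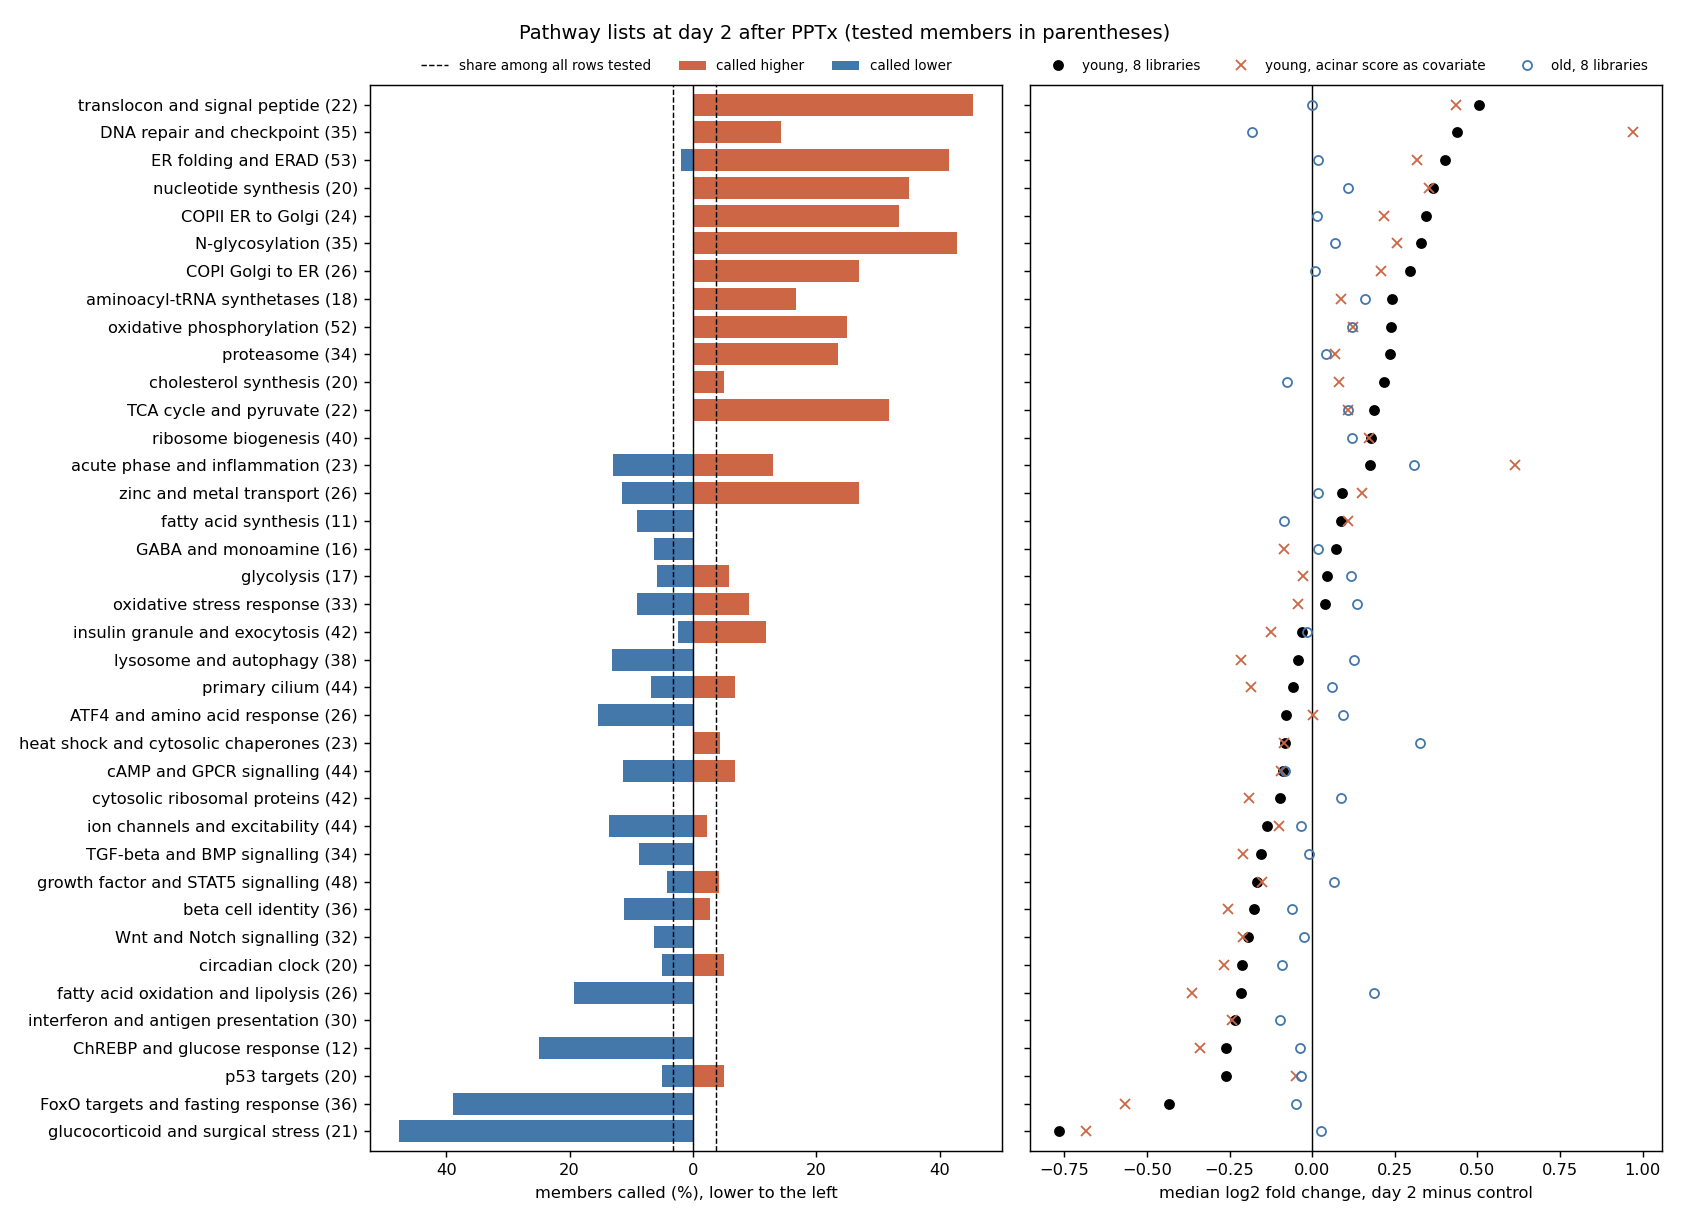
Left, the share of tested members of each pathway list (percent) called higher (right bars) or lower (left bars) at young day 2, with dashed lines at the shares of all rows, 3.79% and 3.2%. Right, the median log2 fold change of the same members in young islets (filled circles), in young islets with the acinar score as a covariate (crosses) and in old islets (open circles); the secretory lists lie near the top and the FoxO and glucocorticoid lists at the bottom, where young and old medians stand apart.

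A broad moderate rise was seen in the machinery that moves secretory proteins into and out of the ER. Over 4 lists (translocon and signal peptide, N-glycosylation, COPII and COPI), 40 of 107 tested members were higher, which is 37.4% against 3.79% of all rows, and 96 of 107 had a positive log2 fold change. The called rises were small, between 0.31 and 0.97, and the median of all 107 members was 0.37, against 0.0091 for all rows. In old islets the median of these members was 0.019.

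At the translocon, the channel by which new chains enter the ER, 10 of 22 members were called, all higher. Ssr2, a subunit of the translocon-associated complex, read 127, 137, 160.1 and 173 CPM in controls 1 to 4 and 247, 302, 291 and 259.8 CPM in day 2 libraries 1 to 4 (log2 fold change 0.88, SE 0.102, adjusted p 0.00247). Every day 2 library stood above every control, by some distance. Spcs2 and Sec11a, subunits of the signal peptidase that trims new chains, rose by 0.71 and 0.58 (adjusted p 0.00368 and 0.00482), and Ssr1 by 0.68 (adjusted p 0.00882).

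N-glycosylation, the attachment and trimming of sugar chains on new proteins, had 15 of 35 members called, all higher. Rpn1, a subunit of the oligosaccharyltransferase that attaches the chain, went from 418, 420.4, 499 and 582 CPM to 810.5, 1010, 1047 and 885 CPM (log2 fold change 0.96, SE 0.122, adjusted p 0.00309). The groups were far apart, with control 4 the highest of its group. Mogs, the glucosidase that makes the first cut in the attached chain, rose by 0.87 (adjusted p 0.00302). Dhdds, which makes the lipid carrier of the sugar, rose by 0.69 (adjusted p 0.0041), and Dad1, another oligosaccharyltransferase subunit, by 0.73 (adjusted p 0.0046).

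Vesicle coats carry cargo onward. Of 24 COPII members 8 were called and of 26 COPI members 7, all higher. Cope, a subunit of the COPI coat, read 172, 205, 201 and 206 CPM in controls and 311, 362, 315 and 326 CPM at day 2 (log2 fold change 0.74, SE 0.0861, adjusted p 0.00247). Sec23b, of the inner COPII coat, read 200.1, 201, 289 and 256 CPM in controls and 399, 480, 458 and 432 CPM at day 2 (log2 fold change 0.90, SE 0.12, adjusted p 0.00363). In neither gene did the groups overlap. Uso1, a tether of incoming vesicles, rose by 0.65, Sec13, of the outer COPII coat, by 0.55, and Bet1, a SNARE of the same route, by 0.78 (adjusted p 0.00373, 0.0079 and 0.0104). The cargo receptor Tmed2 rose by 0.55 and the coat subunits Copb2 and Copg1 by 0.50 and 0.45 (adjusted p 0.0113, 0.0205 and 0.0219).

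The called secretory members tended to run against the acinar score in the 16 other libraries. With the acinar score as a covariate, 7 of the 107 members were called higher, against 1.58% of all rows in that fit, and their median was 0.26. By list, 2 translocon, 4 N-glycosylation, 1 COPII and 0 COPI members were called higher in that edgeR fit; of the COPI members 5 were higher and 0 lower at an unadjusted p below 0.05, their median was 0.21, and the other scalings, filters and tools of the comparison, DESeq2 included, called 3 or more. Of the 40 called members, 22 had an r of -0.5 or lower with the acinar score in the 16 other libraries. The same held for 189 of all 508 called rises (37.2%) and for 19.05% of all rows. The median r of the 40 was -0.538, against -0.148 over all rows. Ssr2 (0.69, adjusted p 0.0228), Rpn1 (0.79, adjusted p 0.0203) and Mogs (0.87, adjusted p 0.00447) stayed past the threshold with the covariate, whereas Cope (0.48, adjusted p 0.0828) and Sec23b (0.55, adjusted p 0.126) did not. The part of the acinar share in these rises was not tested. The counts also leaned on single libraries: without day 2 replicate 3 there were 6 translocon, 7 N-glycosylation, 4 COPII and 1 COPI members, without day 2 replicate 2 there were 6, 7, 4 and 1, without control replicate 1 there were 6, 8, 5 and 2, and without control replicate 2 there were 6, 7, 4 and 2.

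**Figure D2:**
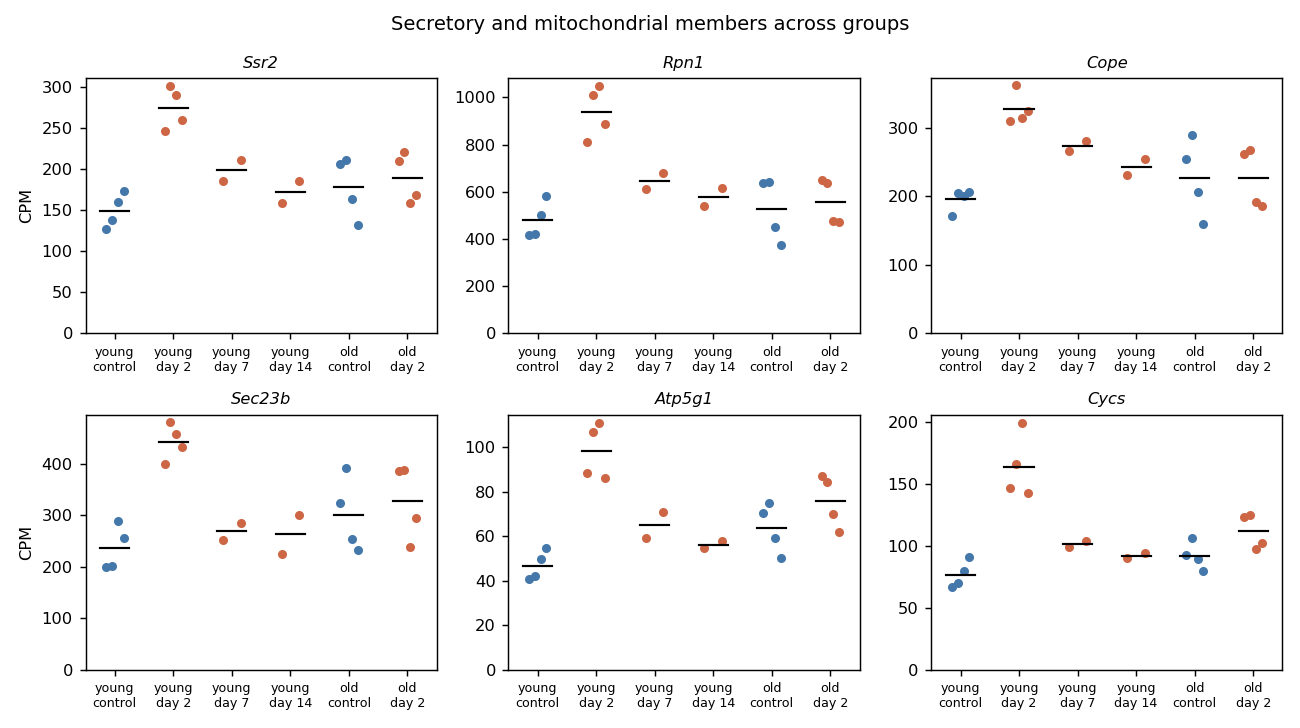
CPM (linear axis from 0) of 4 secretory and 2 mitochondrial genes in each library of 6 groups; points are libraries and lines are group means. Young day 2 libraries lie above the young controls in each panel, and old day 2 libraries overlap old controls in the 4 secretory panels.

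The ER folding and ERAD list (chaperones, oxidoreductases and degradation of misfolded proteins) had 22 of 53 members called higher and 1, Ern1, lower, and 14 were higher with the covariate. Without control replicate 1, control replicate 2, day 2 replicate 2 or day 2 replicate 3 the count of rises was 14, 11, 14 and 12. Creld2, an ER stress target, read 88.6, 89.5, 103 and 145 CPM and 314, 294, 382 and 232 CPM (log2 fold change 1.52, SE 0.181, adjusted p 0.00272); with the covariate its change was 1.76 (adjusted p 0.00012). Hspa5, the main ER chaperone, rose by 1.06, Fkbp2, a prolyl isomerase, by 0.71, and Atf6b, a relative of the stress sensor ATF6, by 0.61 (adjusted p 0.00284, 0.00368 and 0.0039). Ern1, which encodes the sensor IRE1, fell by 0.50 (adjusted p 0.00894).

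The promoters of the ER folding rises were set beside those of the other secretory rises. The ER stress response element (ERSE, CCAAT and CCACG with 9 bases between, searched on both strands in the 250 bases before each RefSeq start) was found in 14 of 9015 tested genes with a promoter window (0.155%). As background, this element was described in promoters of ER chaperones, which the list was built to hold. It was present in 7 of 39 tested ER folding members and 1 of 30 tested N-glycosylation members. It was present in 6 of 19 called ER folding members with a window (31.6%), and in 0 of 7 COPII, 0 of 6 COPI, 0 of 6 translocon and 0 of 13 N-glycosylation members called. With so few genes per list, the last 4 counts say only that these letters were not in these windows. The stretches are shown because they carry the element in the 6 ER folding genes; each is from RefSeq (GRCm38.p6) on the strand of the gene, 5′ to 3′, with 20 bases on each side of the element, which is in capitals.
Hspa5 (chr2:34772005-34772063, + strand, element ending 47 bases before the start): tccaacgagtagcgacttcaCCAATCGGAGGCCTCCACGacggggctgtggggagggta
Hsp90b1 (chr10:86705618-86705676, - strand, element ending 194 bases before the start): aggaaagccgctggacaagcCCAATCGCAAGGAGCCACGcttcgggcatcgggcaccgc
Hsp90b1 (chr10:86705513-86705571, - strand, element ending 89 bases before the start): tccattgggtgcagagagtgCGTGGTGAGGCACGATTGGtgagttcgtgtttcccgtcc
Calr (chr8:84847055-84847113, - strand, element ending 144 bases before the start): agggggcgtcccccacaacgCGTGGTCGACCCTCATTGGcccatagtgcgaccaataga
Dnajc3 (chr14:118937807-118937865, + strand, element ending 87 bases before the start): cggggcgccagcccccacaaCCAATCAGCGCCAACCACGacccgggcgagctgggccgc
Creld2 (chr15:88819500-88819558, + strand, element ending 108 bases before the start): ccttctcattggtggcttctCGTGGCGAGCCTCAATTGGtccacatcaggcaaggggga
Derl3 (chr10:75893222-75893280, + strand, element ending 138 bases before the start): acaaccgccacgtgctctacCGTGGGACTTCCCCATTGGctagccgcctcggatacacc
In Hspa5, Dnajc3 and the upstream copy of Hsp90b1 the element is in the forward direction, and in the others it is reversed, so that the capitals there begin with CGTGG. No other motif searched overlapped these elements. The related element ERSE-II (ATTGG and CCACG with 1 base between) was in 1 of 39 tested ER folding members with a window.

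Mitochondrial genes also held rises. Over the lists of oxidative phosphorylation and of the TCA cycle and pyruvate, 20 of 74 members were higher (27.0%), and 67 of 74 had a positive log2 fold change; the median was 0.22 in young islets and 0.12 in old islets. Atp5g1, which encodes subunit c of the ATP synthase ring, read 40.8, 42.3, 49.7 and 54.5 CPM in controls and 88.5, 107, 111 and 86.3 CPM at day 2 (log2 fold change 1.06, SE 0.108, adjusted p 0.0017). Cycs, cytochrome c, read 66.6, 69.9, 79.8 and 91.1 CPM and 147, 166, 199 and 142 CPM (log2 fold change 1.09, SE 0.118, adjusted p 0.00233). In both genes the lowest day 2 library was well above the highest control. Both are also among the ranked rises given below, whose rule required groups that do not overlap. Ndufc2, of complex I, rose by 0.69 and Uqcrb, of complex III, by 0.52 (adjusted p 0.00312 and 0.00998).

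Among matrix and shuttle enzymes 7 of 22 were called, all higher. Mdh1, the cytosolic malate dehydrogenase of the malate-aspartate shuttle, read 191, 193, 230.3 and 232 CPM and 297, 369, 383 and 333 CPM (log2 fold change 0.70, SE 0.095, adjusted p 0.00363). Its mitochondrial partner Mdh2 rose by 0.44 and Got1, the cytosolic aminotransferase of the same shuttle, by 0.63 (adjusted p 0.00549 and 0.00598). Fh1, fumarase, rose by 0.93 (adjusted p 0.00673). In glycolysis 1 of 17 members was higher, Pgk1 (0.78, adjusted p 0.00363), and 1 lower, the glucose transporter Slc2a2 (-0.58, adjusted p 0.0185).

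With the acinar score as a covariate, 8 of the 74 mitochondrial members were called higher, all of them among the 20, and the median was 0.12; Atp5g1 (0.90, adjusted p 0.00224), Cycs (1.03, adjusted p 0.000336) and Mdh1 (0.54, adjusted p 0.0186) were among them. Of the 20 called, 13 had an r of -0.5 or lower with that score, as did 37.2% of all called rises and 19.05% of all rows. Without day 2 replicate 3 the counts were 4 of the oxidative phosphorylation list (13 with all libraries) and 5 of the TCA list, without control replicate 1, control replicate 2 or day 2 replicate 2 the former was 5, and without control replicate 3 it was 6. Of the proteasome, which breaks down tagged proteins, 8 of 34 members were higher, with Psmb6 at 0.46 (adjusted p 0.00882). With the covariate edgeR called 0 of the 34, 1 was higher and 0 lower at an unadjusted p below 0.05, the median was 0.070, and the other scalings, filters and tools of the comparison, DESeq2 included, called 4 or more; without control replicate 1, control replicate 2, day 2 replicate 2 or day 2 replicate 3 there were 3, 4, 3 and 2.

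Nucleotide synthesis supplies replication and RNA. Of 20 members 7 were called, all higher (35.0%), and with the covariate 5 were higher, 4 of them among the 7, and 1 lower; without control replicate 1, control replicate 2, day 2 replicate 2 or day 2 replicate 3 there were 4 rises. Cad, the enzyme that begins pyrimidine synthesis, read 63.9, 60.5, 77.8 and 89.3 CPM and 147, 136, 152 and 145 CPM (log2 fold change 0.99, SE 0.118, adjusted p 0.00271); the day 2 libraries lay close together and the controls were more spread. Ctps, which makes CTP, rose by 0.85, Nme1, a nucleoside diphosphate kinase, by 0.89, and Impdh1, of guanine nucleotide synthesis, by 0.60 (adjusted p 0.00529, 0.0038 and 0.00314). By contrast, 0 of 40 ribosome biogenesis members and 0 of 42 cytosolic ribosomal protein members were called by edgeR; at an unadjusted p below 0.05 there were 8 higher and 1 lower in the former and 1 higher and 7 lower in the latter, and DESeq2 called 2 and 0 higher and 0 and 1 lower. Of 18 aminoacyl-tRNA synthetases, which load amino acids onto tRNA, 3 were higher, with Vars at 0.50 (adjusted p 0.00346).

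Among the 10 moderate rises with the lowest p outside the cell cycle, ER and acinar lists (185 rows were eligible) were Ppa1, Atp5g1, Cycs, Hn1l, Ssr2, Cope, Sept11, Cad and Lepre1. Ppa1, the cytosolic pyrophosphatase that clears the by-product of biosynthetic reactions, went from 22, 22.4, 25.8 and 31.8 CPM to 65.3, 72.6, 64.7 and 54.4 CPM (log2 fold change 1.33, SE 0.133, adjusted p 0.0017). It was the largest rise of these 9, and every day 2 library stood well above every control. Sept11, a septin of the cytoskeleton, rose by 0.73, Lepre1, an ER prolyl hydroxylase of collagen, by 0.96, and Hn1l by 0.73 (adjusted p 0.00247, 0.00284 and 0.00247). All 9 kept their call in each of the 8 fits that left out a library, and 8 kept it with the acinar score as a covariate, the exception being Cope. They were picked for low p and for groups that do not overlap in these same libraries. The former favours keeping the call. The latter fixed in advance that the groups of all 9, Ssr2, Cope, Atp5g1 and Cycs included, would not overlap. At days 7 and 14 the young libraries had come down part of the way: Ppa1 was at 44.6 and 38.9 CPM at day 7 and 34.3 and 38.8 CPM at day 14, above every control, whereas Sept11 was at 65.1 and 56.4 CPM and 68.1 and 67.5 CPM, with 1 day 7 library within the control range.

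**Figure D3:**
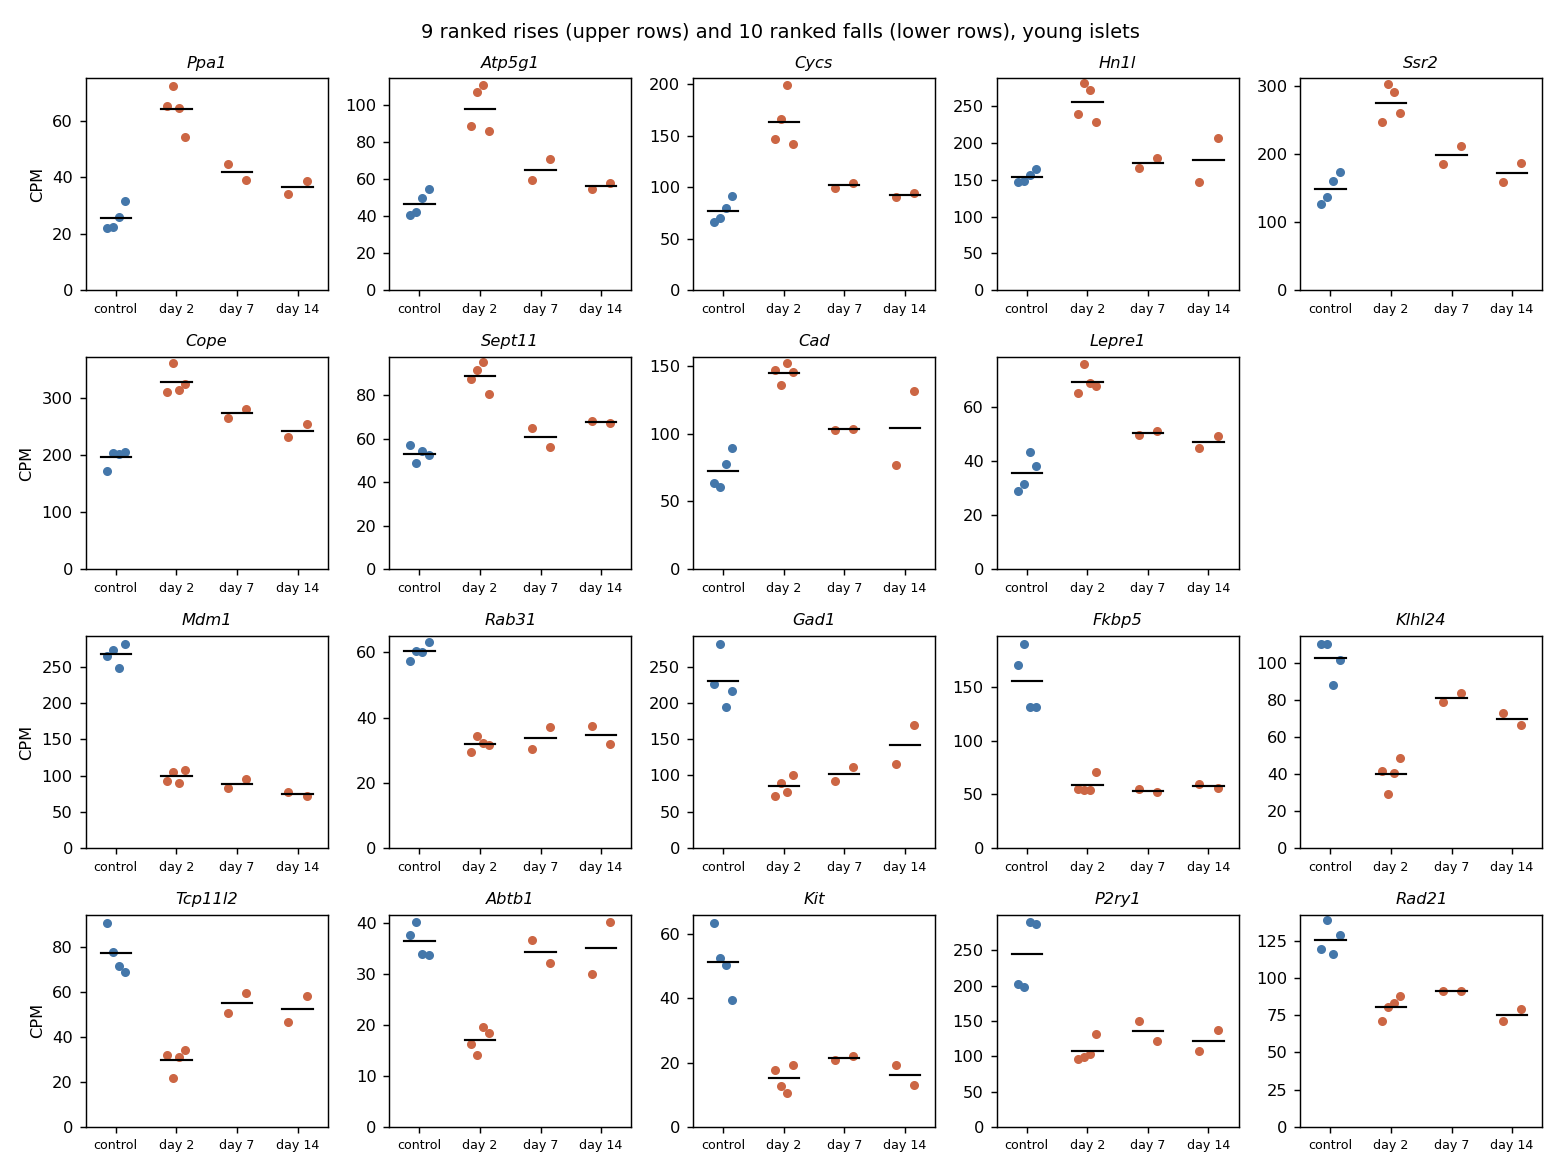
CPM (linear axis from 0) of 9 of the moderate rises and the 10 falls with the lowest p in each young library at control, day 2, day 7 and day 14; points are libraries and lines are group means. Control and day 2 libraries do not overlap in any panel, as the selection rule required, and Fkbp5, Mdm1, Rab31 and Kit remain below every control at days 7 and 14.

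Of the 428 falls, 62 (14.5%) had an r of 0.5 or more with the acinar score in the other 16 libraries, against 11.7% of all rows, and the acinar list itself held 36. Leaving out acinar rows altogether gave 384 falls, and with the covariate 363 of 15794 rows (2.3%) fell. Outside the cell type markers, the lists with the highest shares of falls were genes of the fasting response and glucocorticoid targets.

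Of 36 FoxO and fasting members 14 were called, all lower (38.9%, against 3.2% of all rows), with a median over all 36 of -0.43. Of 21 glucocorticoid and surgical stress members 10 were called, all lower (47.6%), with a median of -0.77. The lists share 7 tested members (19.4% of the FoxO list and 33.3% of the glucocorticoid list), of which Fkbp5, Pdk4, Tsc22d3 and Ddit4 were called, so that the lists together gave 20 falls of 50 members. In old islets the medians were -0.049 and 0.028. With the acinar score as a covariate 10 and 7 members were called lower, of which 8 and 5 were among the calls without it.

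Fkbp5, a co-chaperone of the glucocorticoid receptor and itself induced by glucocorticoids (chr17:28536040-28654469, mm9, GENCODE annotation), read 171, 191, 131 and 132 CPM in controls and 55.4, 54.5, 53.7 and 70.4 CPM at day 2 (log2 fold change -1.42, SE 0.146, adjusted p 0.0017). Controls 1 and 2, which share a code, were above controls 3 and 4, and all were well above the highest day 2 library. The level stayed low at 54.6 and 52.5 CPM on day 7 and 59.9 and 56.4 CPM on day 14. In old islets it did not fall, at 86.2, 110.4, 85.3 and 91.7 CPM in controls and 113, 128, 137 and 138 CPM at day 2, and the difference between ages was called (interaction, young minus old, -1.85, adjusted p 0.000504).

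Pdk4, the kinase that shuts off pyruvate dehydrogenase in fasting, read 40.5, 43.6, 22.2 and 22.4 CPM and 12.1, 10.9, 10.5 and 12 CPM (log2 fold change -1.51, SE 0.241, adjusted p 0.00549). The day 2 libraries lay close together, and controls 1 and 2 were well above controls 3 and 4. Tsc22d3, the glucocorticoid-induced leucine zipper, fell by 0.77 and Ddit4, an inhibitor of mTORC1, by 1.06 (adjusted p 0.0252 and 0.0342). Zbtb16, a glucocorticoid-induced transcription factor, fell by 1.74 from a low level of 4.97, 7.47, 3.49 and 5.14 CPM to 2.54, 1.53, 1.56 and 0.8 CPM (adjusted p 0.0227, and 0.458 with the acinar covariate).

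Other FoxO and fasting members fell by less than Fkbp5 and Pdk4. 8430408G22Rik read 143, 169, 117 and 147 CPM and 48.4, 80.6, 58.2 and 94.9 CPM (log2 fold change -1.04, SE 0.18, adjusted p 0.0079), and Bnip3, of mitophagy, 177, 167, 166 and 167 CPM and 81.4, 112, 119 and 131 CPM (log2 fold change -0.62, SE 0.11, adjusted p 0.00887). The controls of Bnip3 were tightly grouped, and every day 2 library was lower. Fbxo32, the atrogin ubiquitin ligase, fell by 1.01, Ccng2, a cyclin of quiescent cells, by 1.07 and Ulk1, the kinase that starts autophagy, by 0.54 (adjusted p 0.00958, 0.0171 and 0.00998). The same side held for Irs2, a FoxO target and insulin signalling adaptor, whose reads share a row with 9530052E02Rik (-0.54, adjusted p 0.0172), so neither name can be assigned.

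Some members of the glucocorticoid list had a high r with the acinar score. Mt1, a metallothionein that binds zinc, read 102, 158, 72.8 and 128 CPM and 23.9, 52.1, 37.6 and 43.1 CPM (log2 fold change -1.57, SE 0.24, adjusted p 0.00482), but its r with the acinar score was 0.76 and with the covariate its change was -0.63 (adjusted p 0.38). Mt2 behaved alike, with a fall of 1.32, an r of 0.755 and a change of -0.24 with the covariate (adjusted p 0.801). For Fkbp5 and Pdk4 the values with the covariate were -1.39 and -1.74 (adjusted p 0.00012 and 0.0104). The part of the acinar share in the falls of these genes was not tested. Without day 2 replicate 3 the FoxO list had 6 falls and the glucocorticoid list 3; without control replicate 1 there were 8 and 3, without control replicate 2 there were 7 and 3, without day 2 replicate 2 there were 8 and 5, and without control replicate 4 there were 9 and 4. Scaled to library totals, where the median of all rows was 0.32 (0.0091 with TMM), 5 of each list were called lower.

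**Figure D4:**
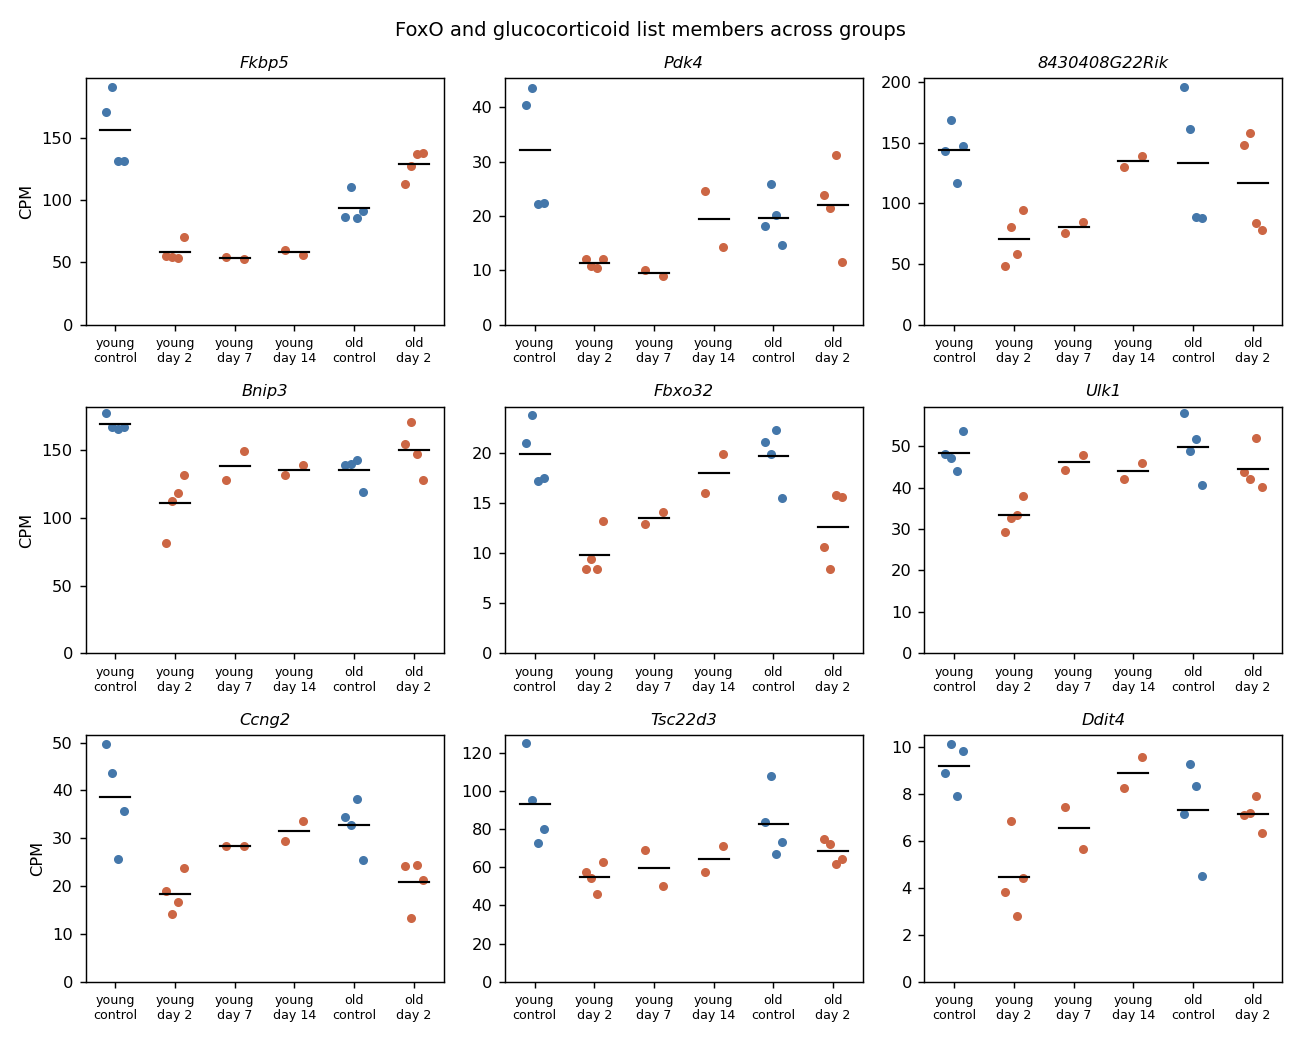
CPM (linear axis from 0) of 9 genes of the FoxO and glucocorticoid lists in each library of 6 groups; points are libraries and lines are group means. Day 2 libraries lie below young controls in each panel, Fkbp5 stays low at days 7 and 14, and the old groups overlap in every panel except Fkbp5 and Ccng2.

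Genes of fat use and glucose response leaned the same way. In fatty acid oxidation and lipolysis 5 of 26 members were called, all lower (19.2%): Pdk4, Angptl4, Lpl, Slc25a20 and Pnpla2. Lpl, lipoprotein lipase, read 136, 146, 112 and 118 CPM and 76.9, 85, 69.7 and 86.5 CPM (log2 fold change -0.69, SE 0.111, adjusted p 0.00549). Slc25a20, the mitochondrial carnitine carrier, fell by 0.54 and Pnpla2, the lipase that opens triglyceride breakdown, by 0.41 (adjusted p 0.0249 and 0.0381). Of the ChREBP list, 3 of 12 were called, all lower: Thrsp (-1.20, adjusted p 0.0461), Rgs16 (-0.87, adjusted p 0.0319) and Arrdc4 (-0.69, adjusted p 0.0344). Txnip, the glucose-induced arrestin, shares its row with Gm15441, and that row fell by 1.54 (adjusted p 0.00869). Without control replicate 1, 2 or 4 or day 2 replicate 2 or 3 the fatty acid list had 2 falls and without control replicate 3 it had 3, and the ChREBP list ranged from 0 to 2 over the 8 fits that left out a library. With library totals the lists had 1 and 0 falls, and with the acinar covariate 3 and 1, of which 2 and 0 were among the calls without it.

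Autophagy and lysosome genes had 5 of 38 called, all lower. Ctsf, cathepsin F, read 99.95, 109, 95.7 and 92.2 CPM and 47.8, 54.2, 62.7 and 76.5 CPM (log2 fold change -0.72, SE 0.122, adjusted p 0.00694), and Map1lc3a and Wipi2, which help form autophagosomes, fell by 0.60 and 0.38 (adjusted p 0.022 and 0.0247). In the ATF4 list, of the amino acid shortage response, 4 of 26 were called, all lower: Nupr1 (-1.82), Slc38a2 (-0.43), Ddit4 and Eif4ebp1 (-0.74); Nupr1, Slc38a2 and Eif4ebp1 had adjusted p of 0.129, 0.643 and 0.353 with the acinar covariate. Nupr1, a stress-induced chromatin protein abundant in exocrine tissue, read 37.8, 78.6, 35.5 and 119 CPM in controls and 15.8, 17, 24 and 19.3 CPM at day 2 (adjusted p 0.0122; r with the acinar score 0.224). Without a library the lysosome list had 2 to 5 falls, fewest without control replicate 2, control replicate 3, day 2 replicate 2 or day 2 replicate 3, and the ATF4 list 1 to 5, fewest without day 2 replicate 3. With library totals the lysosome and ATF4 lists had 0 and 1 falls.

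The promoter windows of the falling lists were searched in the same way. The FoxO core TGTTTAC was in 0 of 11 called FoxO members with a window, in 2 of 30 tested ones and in 240 of 9015 tested genes (2.66%); the palindromic glucocorticoid element (AGAACA and TGTTCT with 3 bases between) was in 0 of 8 called glucocorticoid members, in 1 of 18 tested ones and in 1 of 9015 tested genes. The E-box CACGTG was in 9 of 30 tested FoxO members (30.0%) and 2 of 11 called ones, against 9.69% of tested genes. Metal response letters TGCACNC and TGCGCNC were in 12.5% and 24.4% of tested genes and in 2 and 3 of 8 called glucocorticoid members. The E-box was also in 4 of 10 tested ChREBP members with a window (40.0%) and 1 of 3 called ones. TGATGNAA, the amino acid response core, was in 7 of 23 tested ATF4 members (30.4%) and 1 of 3 called ones, in 1 of 11 called FoxO members and in 2.64% of tested genes, and GCGCA followed by 1 base and GCGC, of nuclear respiratory factor, was in 8 of 43 tested oxidative phosphorylation members (18.6%) and 1 of 10 called ones, against 8.77% of tested genes. The respiratory factor letters were not particular to that list: 7 of 21 tested COPI members (33.3%) and 5 of 28 proteasome members (17.9%) held them, and 1 of 21 TCA members (4.76%). The E-box was likewise in 10 of 33 tested lysosome and autophagy members (30.3%), and in 1 of 27 beta cell identity members (3.7%). These counts describe 250 bases and no distal element.

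The 10 falls with the lowest p and an r below 0.5 with the acinar score (200 rows eligible; the score of the rule is that of the 16 libraries outside the comparison) were Mdm1, Rab31, Gad1, Fkbp5, Klhl24, Tcp11l2, Abtb1, Kit, P2ry1 and Rad21. Mdm1, a microtubule-binding protein of centrioles (chr10:117578843-117606053, mm9, GENCODE annotation), read 265, 274, 249 and 282 CPM in controls and 93.2, 105, 89.6 and 108 CPM at day 2 (log2 fold change -1.44, SE 0.0883, adjusted p 7.04e-05). Both groups were narrow, and the controls were far above. Rab31, a small GTPase of vesicle traffic, read 57.3, 60.4, 60.2 and 63.3 CPM and 29.4, 34.4, 32.3 and 31.5 CPM (log2 fold change -0.92, SE 0.076, adjusted p 0.000728). Kit, the stem cell factor receptor, read 63.4, 52.6, 50.3 and 39.4 CPM and 17.8, 12.8, 10.5 and 19.3 CPM (log2 fold change -1.78, SE 0.217, adjusted p 0.00284).

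These 3 genes did not return by day 14. Mdm1 was at 82.7 and 95 CPM on day 7 and 77 and 71.9 CPM on day 14, Rab31 at 30.4 and 37.1 and 37.5 and 31.9 CPM, and Kit at 21 and 22.2 and 19.4 and 12.9 CPM. Every operated young library was thus below every young control for each of them, and those controls were also above the old controls, at 102, 131, 70.5 and 78 CPM for Mdm1, 45.5, 42.5, 42.8 and 45.1 CPM for Rab31 and 9.94, 14.9, 10.7 and 12.6 CPM for Kit. Klhl24, a ubiquitin ligase adaptor, and Abtb1 came back further: Klhl24 went from 41.6, 29.1, 40.2 and 48.4 CPM at day 2 to 78.6 and 83.6 CPM at day 7, still below the controls, and Abtb1 from 16.3, 14.1, 19.6 and 18.4 to 36.7 and 32.1 CPM.

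The remaining falls of the 10 were Gad1, Tcp11l2, P2ry1 and Rad21. Gad1, the glutamate decarboxylase that makes GABA in beta cells, read 226, 282, 195 and 217 CPM and 72.1, 89.6, 77.3 and 100.5 CPM (log2 fold change -1.44, SE 0.13, adjusted p 0.00122). P2ry1, an ADP receptor, read 203, 197, 290.3 and 288 CPM and 96.6, 99.3, 103 and 131 CPM (log2 fold change -1.19, SE 0.148, adjusted p 0.00302); controls 3 and 4 were above controls 1 and 2. Rad21, the cleaved subunit of cohesin, fell by 0.65 and Tcp11l2 by 1.38 (adjusted p 0.00302 and 0.00247). All 10 falls kept their call in each of the 8 fits that left out a library and with the acinar covariate. Rad21 lost it only when libraries were scaled to their totals. The 10 were picked for low p and groups that do not overlap in these libraries, and for their r with the acinar score. That the groups of each gene stood apart was therefore fixed by the selection. Keeping the call was also favoured by it.

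Of 36 beta cell identity genes 4 were lower and 1 higher, and the median was -0.18; without day 2 replicate 3 there were 2 falls. Besides Gad1, the falls were Nnat (-1.34, adjusted p 0.00363), Trpm5, a calcium-activated cation channel (-1.09, adjusted p 0.0121), and Slc2a2, at 571, 629, 676 and 634 CPM and 305, 451, 441 and 496 CPM. Mafa, a transcription factor of mature beta cells, was the rise, at 39.4, 60.1, 40.1 and 45.3 CPM in controls and 62.6, 102, 72.6 and 70.7 CPM at day 2 (log2 fold change 0.73, SE 0.159, adjusted p 0.0216), although its call was lost with the covariate (adjusted p 0.0592). Ins2 read 84410, 94270, 85140 and 107900 CPM and 63200, 82220, 90050 and 88000 CPM (-0.21, adjusted p 0.593), and the groups overlapped.

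Among signalling lists, falls made up 13.6% of the ion channel list and 11.4% of the cAMP and GPCR list, against 3.2% of all rows. Rises made up 2.27% and 6.82%, against 3.79% of all rows. Of 44 ion channel and excitability members 6 were lower and 1 higher; Itpr1 and Itpr2, the IP3 receptors that release calcium from the ER, fell by 0.94 and 0.82 (adjusted p 0.0104 and 0.0107), and Cacna1c, an L-type calcium channel, by 0.74 (adjusted p 0.0135); without control replicate 2 or day 2 replicate 3 there were 3 falls, and with library totals 1. Of 44 cAMP and GPCR members 5 were lower, with P2ry1 and Rgs16 among them, and 3 higher: Nr4a2 (0.80), Ffar2 (0.45) and Rgs4 (0.94), with adjusted p of 0.0106, 0.0191 and 0.022. Of 48 growth factor and STAT5 members 2 were called in each direction (4.17%, near the shares of all rows). The rises were Ccnd1, the G1 cyclin (0.75, adjusted p 0.00368), and Cish, a STAT5 target (1.34, adjusted p 0.0275), and neither passed with the acinar covariate (adjusted p 0.336 and 0.513). The falls were Egfr (-0.71, adjusted p 0.0237) and Spry1, a feedback inhibitor of receptor tyrosine kinases (-1.01, adjusted p 0.028).

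The lists of exocytosis and metal transport held calls in both directions. In the insulin granule list 25 of 42 members had a negative log2 fold change, the median was -0.030 and Cplx2 was called lower. Called rises made up 11.9% of that list, against 3.79% of all rows. Of 42 insulin granule members 5 were higher, with Syt5, a calcium sensor of secretion, at 39.4, 41.2, 40.1 and 57.6 CPM and 65.9, 76, 81.7 and 68.3 CPM (log2 fold change 0.70, SE 0.122, adjusted p 0.00783), Ica1 at 0.51 and the priming factors Unc13b and Unc13a at 0.43 and 0.37 (adjusted p 0.00774, 0.0113 and 0.0247); with the acinar covariate 3 of the 5 were called, and Ica1 and Unc13b were not (adjusted p 0.215 and 0.159). Of 26 zinc and metal members 7 were higher, with the Golgi zinc transporter Slc30a7 at 0.56 and Slc39a11 at 0.74 (adjusted p 0.00631 and 0.0116), and 3 lower, of which Slc39a5 had an r of 0.969 with the acinar score and changed sign with the covariate (-3.09 and 1.08). With the covariate 2 of the 7 zinc rises were called, Slc30a7 not among them (adjusted p 0.123), and 0 of the 3 falls. TGF-beta and BMP members gave 3 falls of 34 and Wnt and Notch members 2 of 32, led by Smad7 (-0.71, adjusted p 0.0265) and the Wnt co-receptor Lgr4 (-0.83, adjusted p 0.00371). With the covariate 0 of the 3 TGF-beta falls were called. Leaving out a library moved these small counts: cAMP falls to between 1 and 5, granule rises to between 3 and 8, zinc rises to between 2 and 6 and TGF-beta falls to between 0 and 3, with the lowest of each but the last reached without day 2 replicate 3, among others, and TGF-beta at 0 without control replicate 1, 2 or 3 or day 2 replicate 2 or 3.

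Cell cycle genes are given briefly as the setting of these changes. Of 76 S phase members 41 were higher and of 86 G2/M members 11, with medians of 0.99 in each; Mcm2, a subunit of the replicative helicase, read 12.8, 11.7, 17.5 and 20.6 CPM and 73.8, 52, 87.7 and 39.4 CPM (log2 fold change 2.01, SE 0.263, adjusted p 0.00314). Of 35 DNA repair and checkpoint members 5 were higher, led by Timeless, of the replication fork (2.18, adjusted p 0.00251). Over the fits that left out a library the counts were 20 to 53, 3 to 34 and 1 to 10, lowest without day 2 replicate 3 in each and highest without day 2 replicate 4.

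Genes of other endocrine cells of the islet also differed between the groups. Gcg, glucagon, the hormone of alpha cells, read 25020, 32120, 17970 and 20730 CPM in controls and 12450, 5547, 7303 and 6202 CPM at day 2 (log2 fold change -1.59, SE 0.304, adjusted p 0.012). The alpha cell genes Ttr and Irx2 fell by 1.04 and 1.55 (adjusted p 0.00363 and 0.00482), and the summed level of the 12 alpha markers was 18900 to 33380 CPM in controls and 6186 to 13070 CPM at day 2, most of it Gcg. Of 9 alpha cell members tested 4 were called, all lower, with a median of -0.21. In bulk samples fewer cells of a type and less RNA per cell cannot be told apart. Day 2 islets came from the remnant, so the region of the pancreas cannot be told apart from the operation in these genes. Of 9 delta and PP cell members 1 was called, Pyy, and 5 had a negative log2 fold change, with a median of -0.17. Pyy rose from 1247, 622.7, 1399 and 627 CPM to 2120, 2334, 1820 and 2783 CPM (log2 fold change 1.21, SE 0.273, adjusted p 0.0234; 0.159 with the covariate); Ppy, the hormone of PP cells, read 4824, 1165, 4961 and 1723 CPM and 6570, 7840, 6773 and 10590 CPM, with no overlap and an adjusted p of 0.0878. Sst, of delta cells, read 732, 763, 837 and 669 CPM and 664, 634, 601 and 692 CPM (-0.21, adjusted p 0.281).

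**Figure D5:**
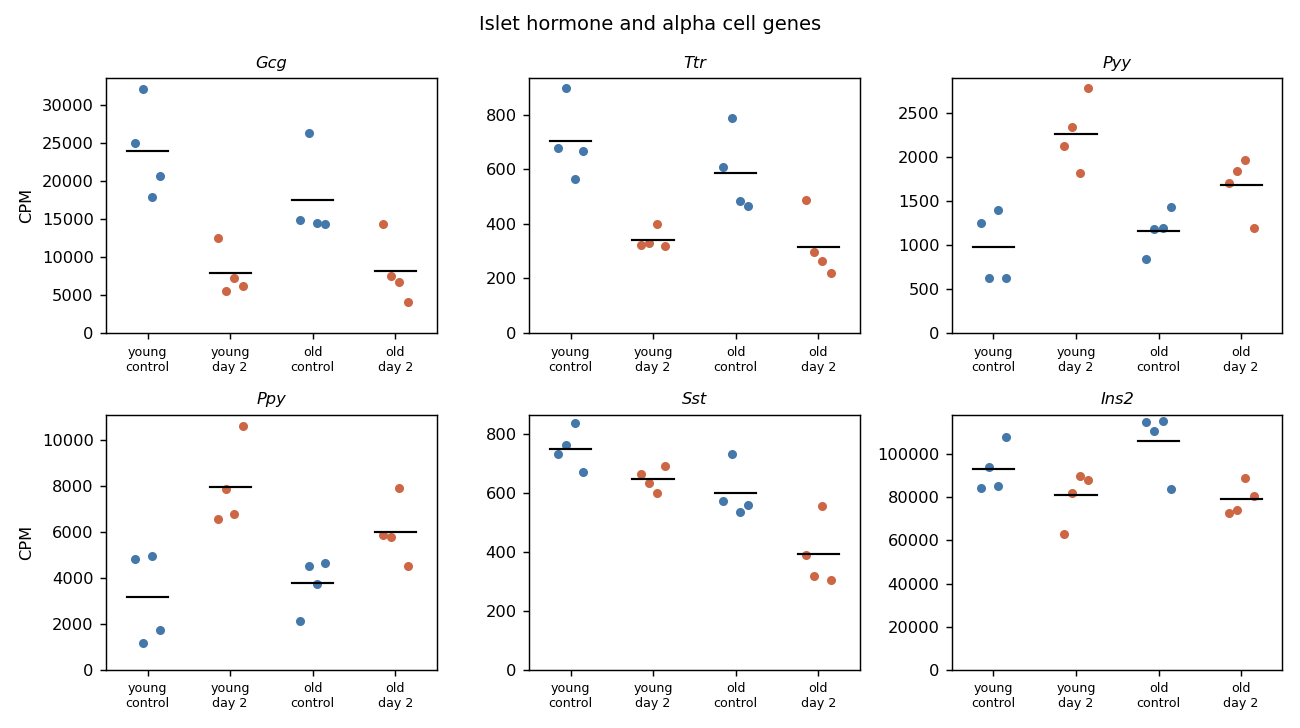
CPM (linear axis from 0) of 6 genes of islet endocrine cells in each library of 4 groups; points are libraries and lines are group means. Gcg and Ttr are lower, and Pyy and Ppy higher, in all young day 2 libraries than in all young controls.

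In old islets the alpha cell genes leaned the same way. Gcg read 14900, 26360, 14530 and 14410 CPM and 14310, 7505, 6762 and 4097 CPM, a log2 fold change of -1.15, and Ttr had -0.93; neither passed the threshold there (edgeR's adjusted p 0.591 and 0.423). With the replicate number as a block the old changes were -1.24 (adjusted p 0.0830) for Gcg and -0.96 (adjusted p 0.0380) for Ttr, so that Ttr was called. The interaction, without the block, was -0.44 for Gcg (adjusted p 0.771) and -0.12 for Ttr (adjusted p 0.899). Few markers of non-endocrine cells other than acinar were called, though the ductal and leukocyte shares stood above those of all rows. The ductal, fibroblast, endothelial, leukocyte and Schwann lists summed to 914 to 1075, 391 to 666, 659 to 694, 250 to 304 and 144 to 180 CPM in controls and to 1032 to 1169, 429 to 590, 571 to 672, 211 to 283 and 163 to 198 CPM at day 2. Of their members, 2 of 15 ductal ones were higher (Tspan8 and Krt18), 1 of 19 fibroblast ones higher (Fn1, 1.83, adjusted p 0.00658) and 3 of 19 leukocyte ones lower (H2-Ab1, H2-Aa and C1qa). Rises were thus 13.3% of the ductal and 5.26% of the fibroblast list, against 3.79% of all rows. Falls were 15.8% of the leukocyte list, against 3.2% of all rows. Without control replicate 2 or day 2 replicate 3 the leukocyte list had 0 falls. The part of a changed cell makeup in the pathway results was not tested.

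The difference between ages was tested over 16 libraries as the interaction of day and age. It was called for 105 of 14705 rows (0.714%), 41 positive (0.279%) and 64 negative (0.435%); with the replicate number as a block within age, where old libraries of the same number deviated together, it was called for 432. Of the 126 genes named by the rule, 24 were called. These genes were picked for low p in the young comparison, and the interaction uses the same young libraries. The count of 24 is therefore not independent of the selection. Mdm1 (-1.74, adjusted p 0.00212), Rab31 (-1.004, adjusted p 0.000504), Fkbp5 and Mcm6 (1.75, adjusted p 0.0118) were called in all 16 fits that left out a library, and Kit (-1.85, adjusted p 0.0194) in 15. Cad (1.06, adjusted p 0.0243), Ppa1 (1.04, adjusted p 0.0326), Cycs (0.83, adjusted p 0.0347) and Atp5g1 (0.84, adjusted p 0.0413) were called in 10, 6, 6 and 3 of the 16.

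By list, the interaction was called with a positive sign in 11 of 76 S phase members and 5 of 53 ER folding members, and with a negative sign in 5 of 43 acinar members and 1 ER folding member. In the FoxO and the glucocorticoid lists 2 members each were negative, with medians of -0.35 and -0.55 beside 0.043 for all rows. Fatty acid oxidation and lipolysis had 3 of 26 members negative and 0 positive, with an interaction median of -0.36. Its median change was -0.21 in young and 0.19 in old islets. Acute phase and inflammation had 3 of 23 negative and 0 positive, with an interaction median of -0.13. In the 4 secretory lists edgeR called 0 of 107 members, with 49 positive and 1 negative at an unadjusted p below 0.05, DESeq2 called 13 and the fit with the replicate block 18. The medians were 0.51 for the translocon, 0.34 for N-glycosylation, 0.34 for COPII and 0.36 for COPI. The median of the acinar list was -3.31 in young and 1.52 in old islets. The old groups overlapped in their acinar share of counts, at 4.75%, 0.688%, 1.01% and 1.79% in controls 1 to 4 and 0.817%, 1.66%, 3.13% and 12.4% at day 2. The part of the acinar genes in the interaction was not tested.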

How the data were processed

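Total RNA of isolated islets was sequenced as 24 bulk libraries, and the 8 young control and day 2 libraries were compared. Per the file headers, the authors aligned reads to mm9 with TopHat and counted uniquely mapped reads per refGene gene with rpkmforgenes; each deposited file holds a raw count and an RPKM per row. The submitters' processing notes name TopHat2 2.1.1 and Trimmomatic 0.36, whereas the study's methods name other tools. The counts were tested with edgeR 4.0.16 (R 4.3.3; TMM scaling, filterByExpr, quasi-likelihood F-test, Benjamini-Hochberg threshold 0.05); the deposited RPKM values were used for no test. CPM values were scaled by TMM over the 24 libraries, and the log2 prior count was 2. Rows that join genes cannot be assigned to either: 1458 of 22197 rows were joined and 441 repeated a name. Of 1746 list genes in 48 lists, 1563 had a row of their own. No per-sample column was left unused (0). Lists, members and rules were chosen with earlier results of these data known.

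Genes were named as up to 4 called members of each pathway list with the lowest p, and as the 10 moderate rises (log2 fold change 0.5 to 1.5, outside cell cycle, ER and acinar lists) and the 10 falls (-0.5 or less, outside the acinar list, r below 0.5 with the acinar score) with the lowest p, each with non-overlapping groups and log2 CPM averaging over 3. Ccng2, Fbxo32, Tsc22d3, Ern1, Mafa, Fn1, the endocrine and marker genes and the joined rows were named after their values had been seen. Alternatives were RLE, upper quartile and library total scaling, DESeq2 1.42.0, limma 3.58.1 voom with and without the 6-digit label code as a block, other count filters, all 24 libraries, the replicate number as a block, acinar rows left out, a covariate for how many mapped reads lay in genes, and each library left out. A ranked rise and a marker are not reported here. The fitting code was tested on simulated data. Same-numbered young libraries deviated together for numbers 1 and 4 (correlations 0.412 and 0.266) and not for 2 and 3 (0.00134 and 0.0140), so these numbers were not taken as pairs. All 4 old ones did (0.496, 0.430, 0.219 and 0.748), so the old and age comparisons are given with and without the block. In both old groups libraries 1 and 2 carried a 6-digit code and libraries 3 and 4 carried none. The share of mapped reads in genes was 51.9% to 54.4% in the former and 23.2% to 41.3% in the latter. Pairing by number and this shared difference cannot be told apart.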

Additional observations from a re-analysis of the deposited data

Results flagged for a closer look

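In 138 groups of 4 libraries checked for a library far from the rest, 5 were found, and chance gives about 1 in 20. Cytosolic ribosomal proteins had a mean log2 CPM of 6.14 in young day 2 replicate 1, below the next library at 6.50. That library was also the shallowest. Circadian clock genes were lowest in young control replicate 4 (4.56, next 4.69) and GABA and monoamine genes in young control replicate 3 (4.81, next 4.87). Cope was lowest in young control replicate 1 (171.8 CPM, next 201.3), and Fkbp5 highest in young day 2 replicate 4 (70.4 CPM, next 55.4).

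Of 126 named genes, 24 had a called age interaction (edgeR, young minus old, log2 scale), 14 positive and 10 negative. The genes were picked for low p in the young comparison, whose libraries the interaction reuses, so this count is not independent of the selection. Among genes of the S phase list the difference was 2.51 for Mcm5, 1.75 for Mcm6, 1.91 for Mcm2 and 2.09 for Timeless, and for Rangap1, of the G2/M list, it was 0.57. Among ER genes it was 1.36 for Creld2, 0.996 for Hspa5, 0.77 for Fkbp2 and 0.71 for Atf6b. Metabolic and other rises had 1.04 for Ppa1, 0.84 for Atp5g1, 0.83 for Cycs, 1.06 for Cad and 0.73 for Hn1l.

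Negative differences were -1.74 for Mdm1, -1.004 for Rab31, -0.83 for Gad1, -1.85 for Fkbp5, -1.11 for Klhl24, -0.90 for Abtb1 and -1.85 for Kit. They were -0.73 for Bnip3, -0.93 for Ctsf and -0.88 for Il6ra. All 24 were called by DESeq2 and with the replicate block, while 4 (Mdm1, Rab31, Fkbp5 and Mcm6) were called in each of the 16 fits that left out a library.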

How the results depend on the processing

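The count of 936 stayed within 1.5 times under RLE (954), upper quartile scaling (1070), DESeq2 (1227), limma voom (933, and 867 with the 6-digit label code as a block), other filters (725 and 1013), all 24 libraries (1151) and acinar rows left out (921). It was 2633 with library totals, where the median of all rows was 0.32 (0.0091 with TMM), 1434 with a covariate for the percentage of mapped reads in genes and 612 with the acinar score as a covariate, which was added after the data had been seen. Leaving out a library gave 376 to 1108. The interaction count of 105 was 402 by DESeq2, 27 with no filter, and 8 to 139 when a library was left out, with 8 and 9 without young day 2 replicates 2 and 3 and 10 without old day 2 replicate 2. The causes were not tested.

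With the replicate number as a block, the young comparison gave 1140 calls and the interaction 432; young numbers 2 and 3 did not deviate together, and the young numbers were not taken as pairs. The old comparison went from 3 calls to 78 with this block, which was added after the data had been seen. Slc39a5 reversed, to 1.08 with the acinar score as a covariate (adjusted p 0.469). Of 126 named genes, 49 kept their call in all alternatives and left-out libraries, and 80 in all 8 fits that left out a library. At these depths genes near 1 CPM rest on a few counts.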
